A study of Mus musculus with 6 samples.

Results

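The adhesion molecules examined here were 10 genes chosen by symbol: the leukocyte integrin chains Itgam, Itgal, Itgax and Itgb2, the chains Itga4, Itga5, Itgav and Itgb1, and the cell surface ligands Icam1 and Vcam1. They are 10 of the 55254 gene symbols in the deposited count table, and all 10 passed the filter on low counts, as did 11875 genes in all. Their RNA was measured by QuantSeq, which sequences the 3′ ends of polyadenylated RNAs, in bone marrow derived macrophages (BMDMs) of C57BL/6J mice, differentiated for 10 days in medium conditioned by L929 cells and then given 100 ng/ml LPS for 4 hrs. Control BMDMs (3 libraries) were hnRNPDfl/fl, with no Cre in their label; M-Δx3,4 BMDMs (3 libraries) were LysCre+hnRNPDfl/fl, in which Cre is expressed from the lysozyme locus of myeloid cells and removes exons 3 and 4 of the gene for AUF1 (hnRNPD). Every library came from LPS-treated cells, so what LPS itself did to these genes was not analysed here. The labels do not say whether the 3 cultures of a group came from separate mice, and p-values then measure the spread between these cultures only.

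Integrins are transmembrane receptors made of an α and a β chain that join the cytoskeleton to the extracellular matrix or to other cells. Itgam, Itgal and Itgax encode αM (CD11b), αL (CD11a) and αX (CD11c), which pair with the β2 chain (CD18, Itgb2), and the β2 integrins carry leukocyte adhesion, complement uptake and migration. The α4, α5 and αV chains can pair with β1 (Itgb1) and bind VCAM1, fibronectin and vitronectin, among others. ICAM1 and VCAM1 are immunoglobulin superfamily proteins induced by inflammatory signals, and they are bound by αLβ2 and αMβ2, and by α4β1, respectively. AUF1 binds AU-rich elements in 3′ UTRs, where it can alter the decay or translation of an mRNA, and the comparison addressed whether its loss altered these RNAs in activated macrophages.

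Because the reads mark 3′ ends, the sequences at the annotated ends of transcripts are shown for Itgam and Icam1, where the counts of regions assigned to shorter transcripts differed as described below. Sequences are from the GENCODE vM21 transcripts, coordinates are GRCm38 (mm10), and all 4 sites lie on the plus strand. The capitals mark a poly(A) signal hexamer (AATAAA or ATTAAA) within the last 60 bases of the transcript. The short Itgam transcript has neither hexamer there, and its final 25 bases are given in lower case.
Itgam ENSMUST00000064821, chr7:128118457-128118481: tgctgaattAATAAAttgggtatat
Itgam ENSMUST00000106240, chr7:128117507-128117531: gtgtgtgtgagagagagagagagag
Icam1 ENSMUST00000086399, chr9:21028783-21028807: ctttgaatcAATAAAgttttatgtc
Icam1 ENSMUST00000215003, chr9:21020974-21020998: aatactgggATTAAAggtatgtgcc
The long Itgam transcript and the full Icam1 transcript each end 20 bases after their hexamer. The Icam1 transcript ENSMUST00000215003, annotated as a retained intron, ends 16 bases after its hexamer. Its counted region, chr9:21021005-21021253, begins past this annotated end, so the sequence shown lies outside the bases that were counted.

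The AU-rich heptamer TATTTAT, which contains the pentamer ATTTA, was searched on the mRNA strand of the annotated 3′ UTRs of the 10 genes. It occurred in Icam1 (2 sites), Vcam1 (1), Itgb1 (1), Itgb2 (1), Itga5 (1), Itga4 (2) and Itgav (3), and these letters were absent from the 3′ UTRs of Itgam, Itgal and Itgax. The 3′ UTRs of the members ran from 446 (Itgb2) to 6508 bases (Itga4). The share of all genes with the heptamer anywhere in the 3′ UTR was not computed. The sites of both adhesion ligands and of both β chains are shown in capitals with their surroundings. Those of the α chains Itga4, Itga5 and Itgav are not printed.
Icam1, chr9:21028316-21028340, plus strand: ttcttgatgTATTTATtaatttaga
Icam1, chr9:21028343-21028367, plus strand: tttaccagcTATTTATtgagtaccc
Vcam1, chr3:116110831-116110855, minus strand: aagagacatTATTTATaaaacccag
Itgb1, chr8:128733155-128733179, plus strand: aactgaagtTATTTATtaaaataaa
Itgb2, chr10:77565518-77565542, plus strand: gccccaactTATTTATatttaaact
In the last 400 bases of the 3′ UTR, 3 of the 10 members held the heptamer (Itgb2, Itga5 and Itgb1), against 12% of the 7999 tested genes whose 3′ UTR had at least 400 bases. The pentamer occurred there in 6 of the 10 members and in 50% of those genes. A match is a description of the letters and not of a bound site.

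Before the members are described, the libraries are. Summed counts ran from 5852374 to 9008878, and from 2503213 to 3846120 when each gene was taken by the transcript of highest mean (its representative). Of the deleted gene, Hnrnpd, the transcript of highest mean count (ENSMUST00000172361) overlapped between the groups, with means of 204.5 ± 115.0 in Control and 138.1 ± 17.9 in M-Δx3,4 libraries (log2 fold change -0.57, SE 0.41, unadjusted p = 0.183 in edgeR). Another Hnrnpd transcript, ENSMUST00000072750, had 174.2, 102.1 and 68.2 normalized counts in Control and 51.8, 12.4 and 15.7 in M-Δx3,4 libraries, which were all lower (log2 fold change -2.11, SE 0.54). Its counted span lies within that of ENSMUST00000172361, so these counts do not assign reads to an AUF1 isoform. The counted regions do not include exons 3 and 4. The study itself reported less AUF1 protein in BMDMs of M-Δx3,4 mice, by immunoblot. Control replicate 3 stood apart. Over 4667 genes with a mean above 50 normalized counts, its log2 counts correlated with the other libraries at 0.764 to 0.894. Among those others r ran from 0.903 to 0.971. Within groups r was 0.764 to 0.903 in Control and 0.95 to 0.952 in M-Δx3,4 libraries. Hepatocyte genes (8, a list added after its values were seen) summed to 618.4 normalized counts in Control replicate 3, among them albumin (Alb, 259.2). In every other library they summed to at most 1.5. All 10 macrophage markers were detected, and summed to 4954.3 to 5726.9 in Control and 3859.9 to 5223.3 in M-Δx3,4 libraries, and of the 9 tested only lysozyme (Lyz2) had an unadjusted p under 0.05 in edgeR (0.0089, log2 fold change -0.91, SE 0.3). Lysozyme is also the locus from which Cre is expressed in M-Δx3,4 cells, so its difference cannot be told apart from an effect of the Cre allele. It is not read here as a measure of macrophages. The other abundant macrophage markers, Adgre1 (0.25, SE 0.34) and Cd14 (-0.33, SE 0.33), had overlapping libraries. The 9 B cell markers summed to 295.0 to 352.4 in Control and 139.9 to 162.0 in M-Δx3,4 libraries, of which the immunoglobulin chain Igkc made up 218.7 to 246.7 and 58.0 to 93.6. The 4 tested genes of this list had a median log2 fold change of -0.26. The heavy chain Ighm had -0.70 (SE 0.40) without overlap of the libraries, and the receptor chain Cd79b 0.39 (SE 0.46) with overlap. Markers of neutrophils, which also carry αMβ2, summed to 409.4 to 711.8 in Control and 506.2 to 735.4 in M-Δx3,4 libraries, and those of T and NK cells, which carry αLβ2, to 44.3 to 54.7 and 24.9 to 41.9. The part of these differences in the results below was not tested, and in bulk RNA fewer cells of a type and less RNA per cell cannot be told apart.

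No difference between M-Δx3,4 and Control BMDMs was detected for any of the 10 adhesion genes (unadjusted p of at least 0.114 by the quasi-likelihood test of edgeR, with 0 under 0.05). With SEs from 0.29 (Itgal) to 0.98 (Itgax) on the log2 scale, differences of a similar size could have gone undetected. A p under 0.05 was found for 3.98% of the 11875 genes tested. None passed the threshold of an unadjusted p under 0.05 together with a log2 fold change of 1 or more in size, which 3.07% of all genes passed. In no member did the 3 libraries of the groups fail to overlap, as they did in 8.44% of all genes. With shares this low, 0 of 10 members does not set them apart from other genes. The log2 fold change was above 0 for 6 members and below 0 for 4, with a median of 0.04 against -0.01 over all genes tested. No transcript of any gene had an adjusted p under 0.05, the smallest being 0.824, and adjusted p-values of the members in edgeR ran from 0.984 to 0.999. The count of members under 0.05 by DESeq2's Wald test and by limma-voom was also 0. In the two-sided exact permutation test, whose smallest possible p with 3 libraries a group is 0.1, the members' values ran from 0.2 to 1.

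**Figure D1:**
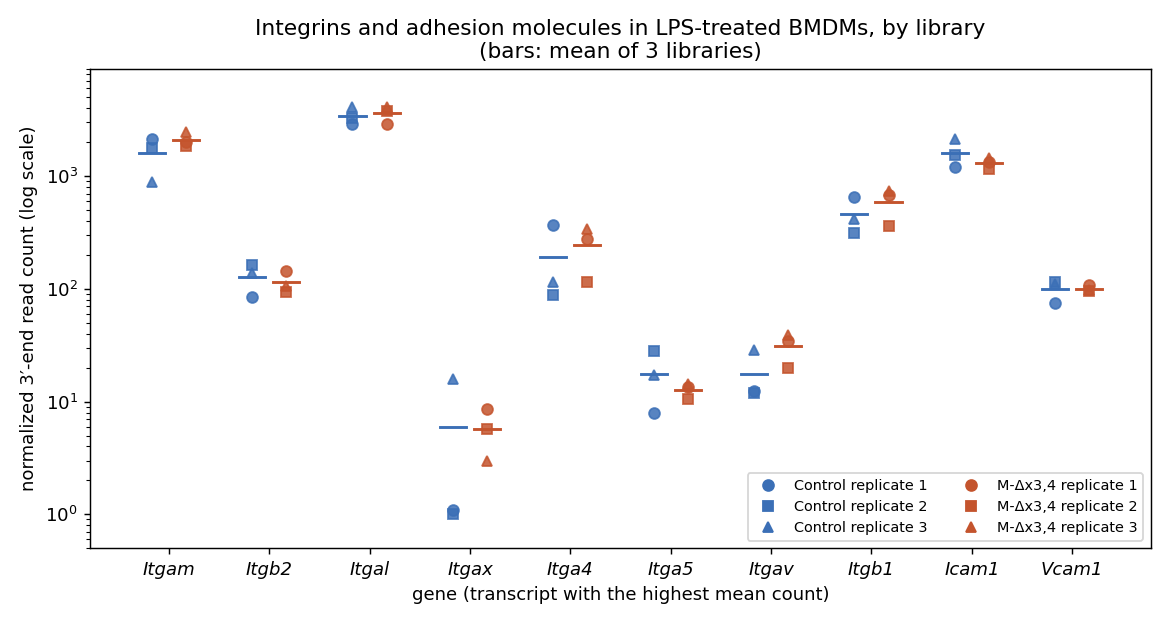
Normalized 3′-end read counts of the 10 genes in each of the 6 libraries, on a log axis, with a bar at the mean of each group of 3. The libraries of the groups overlap in every gene, and Itgax rests on 15.9 normalized counts in Control replicate 3 against 1.1 and 1.0 in the other Control libraries.

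Among the β2 integrins, Itgal, the αL chain, was the most abundant member. Its representative, ENSMUST00000106306, was counted over chr7:127333611-127335387 on the plus strand, a 3′ UTR of 1528 bases and 249 bases beyond its annotated end. It had 2924.5, 3277.5 and 4108.1 normalized counts in Control libraries and 2926.0, 3790.5 and 4118.2 in M-Δx3,4 libraries. The lowest and the highest libraries of the groups thus nearly coincided. The log2 fold change was 0.07 (SE 0.29, unadjusted p = 0.809 in edgeR), and it turned to -0.03 without Control replicate 1 and also without M-Δx3,4 replicate 3.

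Itgam, the αM chain and a common surface marker of macrophages, had 2120.5, 1766.9 and 881.0 normalized counts in Control libraries and 2012.7, 1838.1 and 2482.9 in M-Δx3,4 libraries (ENSMUST00000064821, chr7:128117378-128118740, plus strand). Control replicate 3 was the lowest library, and the other 2 Control libraries lay within or close to the M-Δx3,4 range. The means were 1589.4 ± 638.5 and 2111.2 ± 333.5 (SD, n = 3), and the log2 fold change was 0.41 (SE 0.34, unadjusted p = 0.252 in edgeR). Without Control replicate 3 it fell to 0.13. In GENCODE vM21 the gene model Gm49368 overlaps the Itgam region on the same strand. Whether its transcripts added reads to this region was not tested.

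Itgb2, the β2 chain that these α chains share, had 85.4, 161.2 and 138.7 normalized counts in Control and 144.7, 93.2 and 106.3 in M-Δx3,4 libraries. Neither group was consistently above the other, and the log2 fold change was -0.16 (SE 0.37, unadjusted p = 0.664 in edgeR). The representative, ENSMUST00000153541, is annotated as a target of nonsense-mediated decay and combines 4 regions. The protein-coding ENSMUST00000000299, counted over chr10:77565241-77565935, held all but a few of the same reads and gave -0.17 (SE 0.37).

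Itgax, the αX chain that also marks dendritic cells, was near the limit of detection. Raw counts were 1, 1 and 14 in Control and 9, 6 and 4 in M-Δx3,4 libraries (ENSMUST00000033053, chr7:128150195-128150906, plus strand). The only Control library with more than 1 count was Control replicate 3, in which the hepatocyte genes were found. The log2 fold change of -0.06 (SE 0.98, unadjusted p = 0.954 in edgeR) moved to 2.31 without that library, still with an unadjusted p of 0.109 in edgeR, so a difference in either direction was not detectable at this depth. The summed counts of 9 dendritic cell markers were 10.2 to 19.3 in Control and 2.9 to 18.0 in M-Δx3,4 libraries.

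Among the chains that can pair with β1, Itgb1 itself had 656.0, 311.3 and 417.2 normalized counts in Control and 673.8, 359.6 and 735.3 in M-Δx3,4 libraries (ENSMUST00000090006, chr8:128732089-128733449, plus strand). The libraries interleaved, with Control replicate 2 and M-Δx3,4 replicate 2 the lowest. Between the groups the log2 fold change was 0.35 (SE 0.37, unadjusted p = 0.354 in edgeR).

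Itga4, which forms the VCAM1 receptor α4β1, varied more between the libraries of a group than between the groups. It had 369.0, 88.1 and 115.9 normalized counts in Control libraries and 278.9, 115.1 and 341.4 in M-Δx3,4 libraries (ENSMUST00000099972, chr2:79326616-79333372, plus strand). Control replicate 1 was the highest of all 6, and the log2 fold change was 0.36 (SE 0.51, unadjusted p = 0.489 in edgeR). Without Control replicate 1 it was 1.27 (SE 0.42), with an unadjusted p of 0.00695 and an adjusted p of 0.196 in edgeR, and over all alternatives its adjusted p ran from 0.196 to 1. Without Control replicate 2 it was 0.02. The region overlaps Cerkl, a gene on the opposite strand.

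Itgav, the αV chain, is known for pairing with several β chains and for binding vitronectin. It had 12.5, 12 and 28.4 normalized counts in Control and 34.5, 20 and 38.9 in M-Δx3,4 libraries (ENSMUST00000028499, chr2:83803336-83807165, plus strand). M-Δx3,4 replicate 2 lay under Control replicate 3, so the groups overlapped. Its log2 fold change of 0.82 (SE 0.49) had the lowest p of the members, an unadjusted p of 0.114 in edgeR. Without Control replicate 3 it was 1.35 (SE 0.51), with an unadjusted p of 0.0163 and an adjusted p of 1 in edgeR.

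Itga5, the α chain of the fibronectin receptor α5β1, had 8.0, 28.0 and 17.1 normalized counts in Control and 13.4, 10.5 and 14.2 in M-Δx3,4 libraries. The M-Δx3,4 libraries lay inside the Control range. Its log2 fold change was -0.48 (SE 0.55, unadjusted p = 0.395 in edgeR), and without Control replicate 2 it was 0.02. This representative, ENSMUST00000215331, is annotated as a target of nonsense-mediated decay and sums 30 regions, mostly exons. The protein-coding ENSMUST00000023128 (chr15:103344037-103345268, minus strand) had 3.4 to 14 normalized counts in Control and 6.0 to 7.7 in M-Δx3,4 libraries, and a log2 fold change of -0.07 (SE 0.73).

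Of the ligands, Icam1 was the more abundant, with 1193.5, 1541.6 and 2113.2 normalized counts in Control and 1331.2, 1154.1 and 1440.6 in M-Δx3,4 libraries (ENSMUST00000086399, chr9:21027947-21029066, plus strand). Control replicate 3 was the highest library, and Control replicate 1 lay inside the M-Δx3,4 range. Their log2 fold change was -0.30 (SE 0.31, unadjusted p = 0.342 in edgeR) and came to -0.05 without Control replicate 3. An antisense gene, Gm47079, overlaps this region on the opposite strand.

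Vcam1 had 75.2, 114.1 and 110.3 normalized counts in Control and 108.3, 96.1 and 97.3 in M-Δx3,4 libraries (ENSMUST00000029574, chr3:116109700-116110876, minus strand). All 3 M-Δx3,4 libraries lay between the lowest and the highest Control library. On the log2 scale the difference was 0.01 (SE 0.35, unadjusted p = 0.979 in edgeR), and with each library left out it stayed between -0.16 and 0.12.

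**Figure D2:**
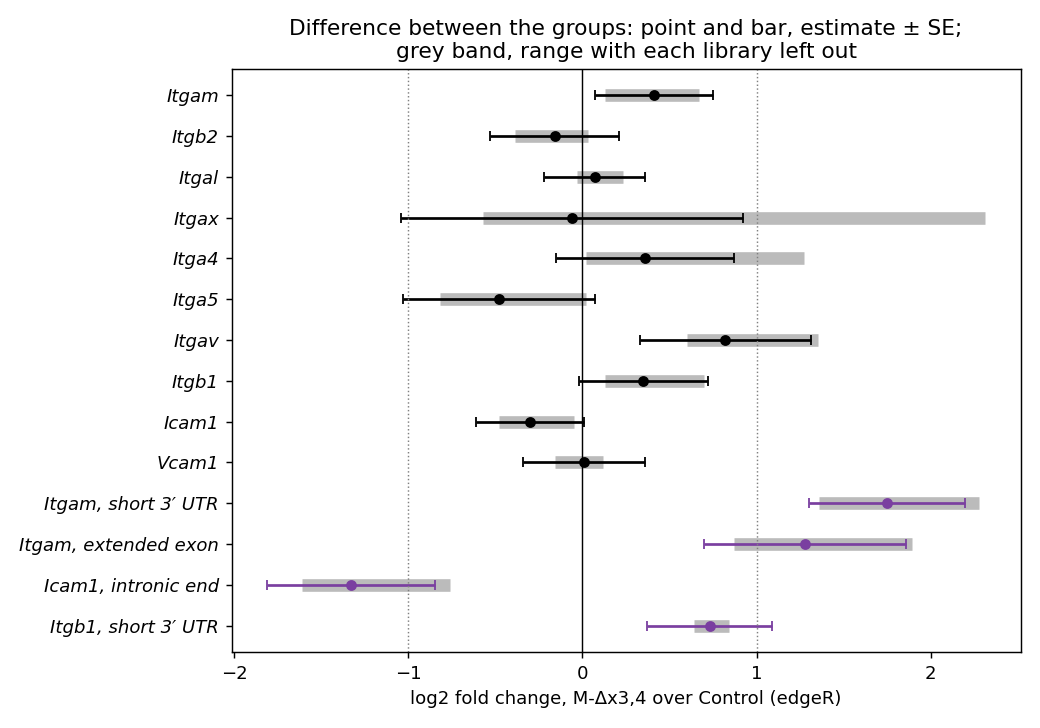
Log2 fold change of M-Δx3,4 over Control BMDMs from edgeR for the 10 genes (black) and 4 shorter transcript rows (purple), with its SE as a bar and, as a grey band, the range of the estimates with each library left out in turn. Dotted lines stand at -1 and 1. The band of Itgax runs from -0.57 to 2.31, and the short 3′ UTR row of Itgam stays between 1.36 and 2.28.

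The deposited rows are transcripts, and the 10 genes have 49 of them, of which 34 had at least 1 count, in 28 different sets of counts. Of the 25 transcripts tested, which held 21 different sets of counts, 3 had an unadjusted p under 0.05 in edgeR, and all 3 also changed by 1 or more on the log2 scale. Over all 32475 transcripts tested 4.13% had such a p, and the 25 rows share reads within a gene. In 3 of the 25 rows the groups did not overlap, against 8.88% of all transcripts. These were rows of Itgam, Icam1 and Itgb1. They were singled out by these values, which are given below as a description, and all had an adjusted p of 0.984 in edgeR.

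The short Itgam transcript ENSMUST00000106240 ends at 128117531 in the annotation, with a 3′ UTR of 154 bases in place of 1114. It was counted over chr7:128117378-128117780, the first 403 bases of the region of the long transcript, so its reads are also part of the long row. It had 33.0, 74.1 and 30.7 normalized counts in Control and 121.7, 228.3 and 116.1 in M-Δx3,4 libraries. Every M-Δx3,4 library was above every Control library, with means of 155.4 ± 63.3 and 45.9 ± 24.4 (SD, n = 3). The log2 fold change was 1.75 (SE 0.45, unadjusted p = 0.00134 in edgeR), and it lay between 1.36 and 2.28 with each library left out. Its adjusted p was 0.0156 when low counts were not filtered out and otherwise ran up to 1, as without Control replicate 3 or without M-Δx3,4 replicate 3.

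As a share of the reads of the long row, the short region held 1.56% (95% exact Clopper-Pearson interval 1.05 to 2.23), 4.19% (3.31 to 5.24) and 3.48% (2.31 to 5.03) in Control libraries. In M-Δx3,4 libraries it held 6.05% (5.07 to 7.15), 12.4% (11 to 14) and 4.67% (3.98 to 5.45). These intervals cover counting error only, since PCR copies are not separate molecules. The groups did not overlap, although the interval of M-Δx3,4 replicate 3 overlapped those of Control replicates 2 and 3, and M-Δx3,4 replicate 2 was far above the rest. The remaining, distal part of the long region had 2087.4, 1692.8 and 850.3 normalized counts in Control and 1890.9, 1609.8 and 2366.9 in M-Δx3,4 libraries, and these overlapped.

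Another Itgam transcript, ENSMUST00000120355, ends in an exon extended into the last intron. Its region, chr7:128116958-128117339, lies upstream of the final exon, and only 34 of its bases are exonic in the long transcript. It had 12.5, 29.0 and 10.2 normalized counts in Control and 12.5, 63.7 and 50.9 in M-Δx3,4 libraries. M-Δx3,4 replicate 1 was at the level of Control replicate 1, so the groups overlapped, and the log2 fold change was 1.28 (SE 0.58, unadjusted p = 0.044 in edgeR). Its unadjusted p was above 0.05 in 7 of 14 alternatives, DESeq2 (0.0509) and limma-voom (0.0915) among them, with adjusted p-values from 0.397 to 1.

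The Icam1 transcript ENSMUST00000215003 was counted over chr9:21021005-21021253, a stretch of 249 bases past its annotated end that is intronic in the full transcript. It had 27.3, 37.0 and 78.4 normalized counts in Control and 24, 16.2 and 16.5 in M-Δx3,4 libraries. The M-Δx3,4 values were all below the Control values, narrowly so for Control replicate 1. The log2 fold change was -1.33 (SE 0.48, unadjusted p = 0.0136 in edgeR). Without Control replicate 3 it was -0.76, with an unadjusted p of 0.113 in edgeR, and over all alternatives the adjusted p ran from 0.168 to 1. Set against the full transcript in the same library, these counts came to 2.29%, 2.4% and 3.71% in Control and 1.8%, 1.4% and 1.14% in M-Δx3,4 libraries, and the groups again did not overlap.

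The short Itgb1 transcript ENSMUST00000149116, counted over 2 regions of which the last ends at 128732638, had 63.8, 56.1 and 70.5 normalized counts in Control and 88.2, 110.4 and 116.8 in M-Δx3,4 libraries. All M-Δx3,4 libraries were higher, and the log2 fold change was 0.73 (SE 0.36, unadjusted p = 0.0583 in edgeR). Relative to the long Itgb1 row the counts came to 9.72% to 18.0% in Control and 13.1% to 30.7% in M-Δx3,4 libraries, and there the groups overlapped. The short Itgal transcript ENSMUST00000170971, nested in the long Itgal region as in Itgam, had 33.0, 61.1 and 50 normalized counts in Control and 24, 84.7 and 39.7 in M-Δx3,4 libraries, and its log2 fold change was 0.04 (SE 0.48). Its share of the long row was 1.13% to 1.86% in Control and 0.819% to 2.23% in M-Δx3,4 libraries.

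**Figure D3:**
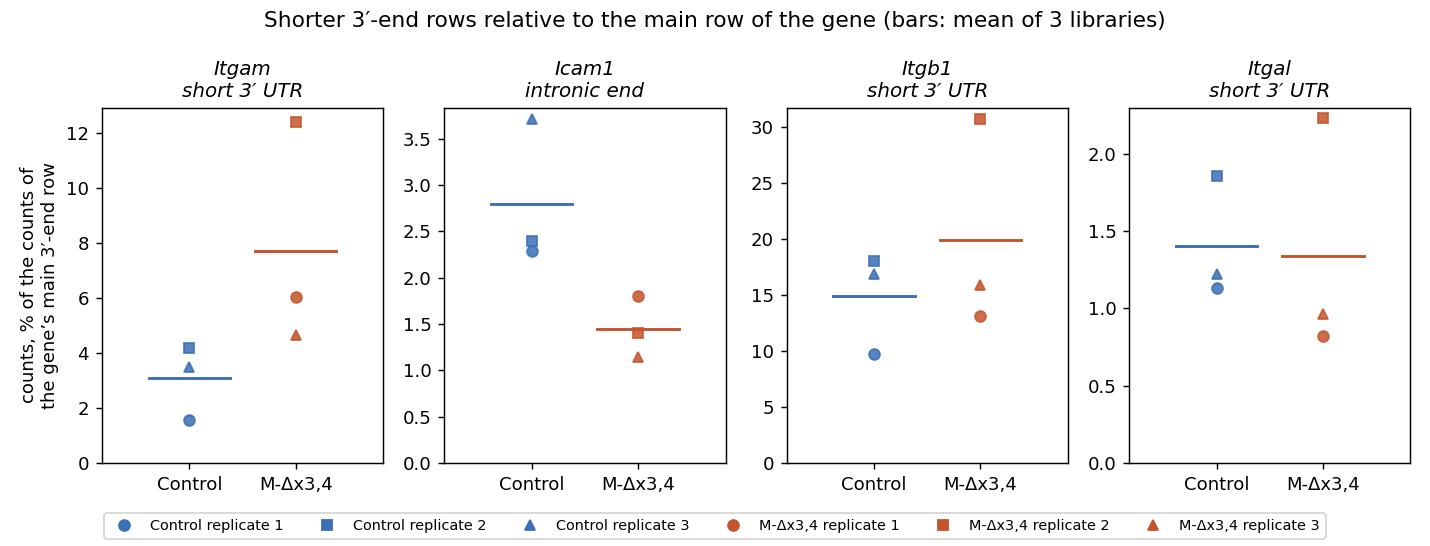
Counts of 4 shorter rows in each library, as a percent of the counts of the main row of their gene, with a bar at the mean of each group of 3 libraries; each panel has its own axis from 0. The M-Δx3,4 libraries lie above the Control libraries for Itgam (means 7.71% and 3.08%) and below them for Icam1 (1.45% and 2.8%), and overlap them for Itgb1 and Itgal.

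By TPM, as deposited by the authors and scaled to the length of each counted region, the order of the levels was Itgal, Itgam, Icam1, Itgb1, Itgb2, Vcam1, Itga4, Itgax, Itgav and Itga5. Itgal had a mean TPM of 141 ± 18.5 in Control and 153 ± 25.8 in M-Δx3,4 BMDMs, Itgam 87.0 ± 39.0 and 117 ± 22.0, and Icam1 105 ± 25.1 and 88.3 ± 13 (SD, n = 3). Itgal was the highest of these 3 genes in each of the 6 libraries, while Itgam was above Icam1 in 4 of them and below it in the other 2. Itgb1 (16.3 to 41.6 TPM) was separated from Icam1 above it (74.0 to 133) and from Itgb2 below it (4.97 to 8.58). Vcam1 (5.03 to 7.08 TPM) overlapped Itgb2, and lay above Itga4 (0.933 to 4.31). The Itgb2 values are for its row of 1342 bases, while its protein-coding row of 695 bases held nearly all of the same reads. Its TPM, and the overlap with Vcam1, thus depend on the row chosen. Itga4, Itgax, Itgav and Itga5 overlapped each with the next. The lower part of this order depends on the division by length, although 3′-end reads need not increase with the length of a region. By mean normalized counts Itga4 (191.0 in Control and 245.2 in M-Δx3,4) was above Itgb2 (128.4 and 114.8) and Vcam1 (99.8 and 100.6). By the same counts Itgax (6.0 and 5.8) was below Itgav (17.7 and 31.1) and Itga5 (17.7 and 12.7). The TPM of Itgb2, the shared β2 chain, was thus well below those of Itgal and Itgam, in 3′ ends counted on RNA and not in protein.

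Since the α and β chains of an integrin appear on the surface as pairs, 6 ratios of an α chain to its β chain and the ratio of Vcam1 to Icam1 were compared within libraries, as log2 ratios of counts with 0.5 added. None of the 7 had groups that did not overlap. The difference of M-Δx3,4 minus Control was 0.63 for Itgam to Itgb2 (3.58 ± 0.99 in Control and 4.21 ± 0.38 in M-Δx3,4), with p = 0.4 in the exact permutation test, two-sided. The largest difference was 0.86, for Itgax to Itgb2, which rests on few counts, and the only negative one was -0.67, for Itga5 to Itgb1. The difference was 0.5 for Itgav to Itgb1, 0.21 for Itgal to Itgb2 and 0.16 for Itga4 to Itgb1. The smallest p of the exact permutation tests was 0.2, for Vcam1 to Icam1 (-3.99 ± 0.25 and -3.69 ± 0.17), and adjusted over the 7 ratios p ran from 0.7 to 0.8. The SD was larger in Control than in M-Δx3,4 libraries for every ratio but Itgal to Itgb2 (0.39 and 0.56). It was 1.88 and 0.59 for Itgax to Itgb2, and 0.9 and 0.07 for Itgav to Itgb1. Itgav had 11 to 25 counts in Control libraries. The difference in spread was not tested.

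**Figure D4:**
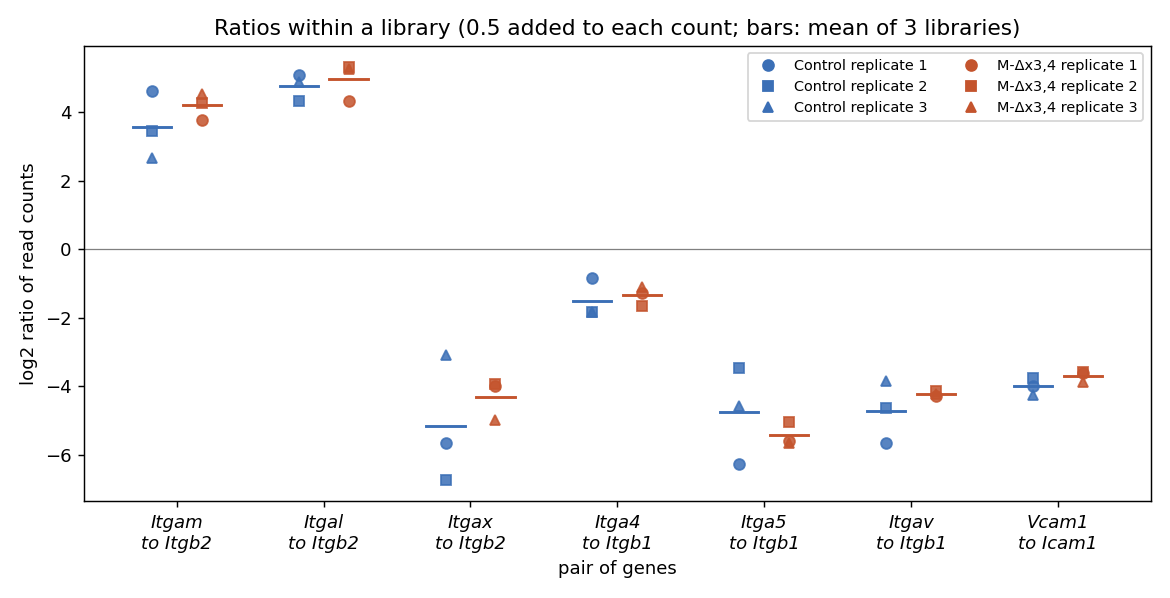
Log2 ratio of the read counts of 2 genes within each library, with 0.5 added to each count and a bar at the mean of each group of 3 libraries. Libraries of both groups overlap in all 7 ratios.

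The other genes of adhesion, in lists compiled for the pathway, were read against 1.45% of all genes that were higher and 2.53% that were lower in M-Δx3,4 at an unadjusted p under 0.05 in edgeR. Of 18 other integrin chains, 13 had a count and 5 were tested, and none had such a p. The most abundant was Itga9, the α9 chain, with 295.0, 200.2 and 128.5 normalized counts in Control and 129.4, 200.7 and 205.9 in M-Δx3,4 libraries. Of 36 tested genes of integrin activation and the adhesome, none had such a p, and their median log2 fold change was -0.04. The 3 most abundant were the Src family kinase Lyn (0.35, SE 0.29), the small GTPase Rap1b (0.41, SE 0.40) and the signalling adaptor Fcer1g (-0.54, SE 0.32), and the groups overlapped in each.

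Of 23 tested adhesion receptors and selectin ligands, none was higher and 1 was lower in M-Δx3,4 BMDMs, E-cadherin (Cdh1), a homophilic receptor of adherens junctions. It had 12.5, 24 and 28.4 normalized counts in Control and 1.9, 10.5 and 3.0 in M-Δx3,4 libraries, without overlap, and its log2 fold change was -2.07 (SE 0.66, unadjusted p = 0.00684 and adjusted p = 0.984 in edgeR). The hyaluronan receptor Cd44 (-0.20, SE 0.3) and the P-selectin ligand Selplg (-0.63, SE 0.36) had overlapping libraries.

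Of 20 tested extracellular ligands of integrins, 4 had an unadjusted p under 0.05 in edgeR, all lower in M-Δx3,4: the fibrinogen chains Fga, Fgb and Fgg and vitronectin (Vtn), plasma proteins made by the liver and bound by β2 and αV integrins. They were found almost entirely in Control replicate 3, with 36.4, 51.2, 85.3 and 14.8 normalized counts, and were listed at 0 in every M-Δx3,4 library. The only other library with any of them was Control replicate 2, with 5.0 for Fgb. It was in Control replicate 3 too that the hepatocyte genes were found, and without it none of the 4 passed the filter on low counts. Osteopontin (Spp1), a ligand of αV and α4 integrins that macrophages make, had 476.0, 136.1 and 409.2 normalized counts in Control and 651.7, 276.9 and 448.5 in M-Δx3,4 libraries, with a log2 fold change of 0.43 (SE 0.44).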

How the data were processed

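QuantSeq FWD 3′ mRNA libraries of 6 LPS-treated BMDM cultures were sequenced on an Ion Proton. Per the study's methods, reads were mapped to mm10 with TopHat2 (2.1.1 in the submitters' processing notes) and unmapped reads with Bowtie2 in local mode (2.3.2 in those notes), and reads were counted with metaseqR2 on the 3′ UTR regions of Ensembl transcripts. The authors deposited these region counts, not normalized, and the TPM values that they scaled by region length. Not used were a further 18 columns that held values for the 6 samples together, and the columns of the authors' own comparison (fold changes and p-values).

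Here regions were added up per transcript (142567 transcripts) and scaled by median-of-ratios size factors. Transcripts with a normalized count over 4.79, the median over the whole table, in any library were kept, leaving 32475. The groups were compared in edgeR 4.0.16 (R 4.3.3, quasi-likelihood test), with Benjamini-Hochberg adjustment over all transcripts tested; DESeq2 1.42.0 and limma 3.58.1 were alternatives. Normalized counts are counts divided by size factors, and SE is that of the log2 fold change. The row of highest mean stands for its gene. Single values were compared by exact permutation tests (scipy 1.17.1). Depth sets the precision: genes under about 20 counts carry a large counting error. Reads of overlapping transcripts are counted in each, so the summed counts of 5852374 to 9008878 per library overstate the depth. With each gene taken by its representative they were 2503213 to 3846120. The edgeR step was tested on simulated data for 3 against 3 libraries, where it recovered 172 of 184 changed genes among 11875. Recovery at the log2 fold changes and counts of the 10 members was not tested. All 10 members are named, with, of each list, genes with an unadjusted p under 0.05 and its 3 most abundant genes where a result turned on them; the members and lists were chosen with earlier results of these data known, and the hepatocyte list and the shorter transcript rows after their values were seen. Sequences were read from GENCODE vM21 (GRCm38) transcripts.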

Additional observations from a re-analysis of the deposited data

How the results depend on the processing

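Of 159 values of the members' log2 fold changes under the alternatives (TMM or library totals for scaling, DESeq2, limma-voom, other filters, other handling of transcripts, a replicate block and each library left out), 145 kept their direction and their side of an unadjusted p of 0.05. Itga4 without Control replicate 1 (1.27) and Itgav without Control replicate 3 (1.35) moved under it, which set the members past the threshold, and those under 0.05, to 0 to 1 with each library left out. The direction turned in 12 values: Itgb2 without Control replicate 2 (0.03); Itgal without Control replicate 1 and without M-Δx3,4 replicate 3 (both -0.03); Itga5 without Control replicate 2 (0.02); Itgax with limma-voom (0.71), the replicate block (0.56), without Control replicate 3 (2.31) and without M-Δx3,4 replicate 3 (0.26); and Vcam1 with 1 transcript per gene (-0.03), with identical transcripts taken once (-0.0), without Control replicate 1 (-0.16) and without M-Δx3,4 replicate 1 (-0.05). The cause was not tested. With each library left out, the ranges of these 5 genes were -0.39 to 0.03 for Itgb2, -0.03 to 0.23 for Itgal, -0.82 to 0.02 for Itga5, -0.57 to 2.31 for Itgax and -0.16 to 0.12 for Vcam1. The genes past the threshold, 365 in all, came to 228 by DESeq2, 561 with no filter, 157 with filterByExpr and 82 at an unadjusted p under 0.01, and, with a library left out, were fewest without Control replicate 3 (221) and most without Control replicate 1 (1267). The correlations of the deviations of same-numbered libraries were -0.213, 0.538 and -0.31. Deviations from a mean of 3 libraries depend on each other, so these values cannot show whether a shared number marks a pair. With the replicate block 251 genes passed the threshold and the members past it stayed at 0. Chain ratios moved by less than their spread under every alternative run for them (each library left out, and 5 added to each count). The number of integrin ligands lower in M-Δx3,4 went from 4 to 1 without Control replicate 3, a choice made after seeing the data, and the remaining gene was another, Thbs1. At 1 to 52 counts in a library, the depth limits what can be said of Itgax, Itga5 and Itgav.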
